A study of Saccharomyces cerevisiae with 10 samples.

Results

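The genes described here encode 10 subunits of the SWR1 complex of Saccharomyces cerevisiae, namely SWR1, SWC4, YAF9, VPS72, SWC5, ARP6, VPS71, SWC3, SWC7 and BDF1. They were chosen by name from the R64 gene table, which held 6002 nuclear genes that code for protein and have a known strand, and all 10 were found there. A gene had a peak of Swc4 when a peak overlapped its annotated body or the 500 bp upstream of its start by at least 1 bp.

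Swc4 was followed by chromatin immunoprecipitation and sequencing (ChIP-seq) using a c-Myc antibody, in yeast grown in YPD, a rich medium, at 30 °C to mid-log phase. The groups were yaf9d with SWC4-13MYC, eaf1d with SWC4-13MYC, swr1d with SWC4-13MYC and wild-type with SWC4-13MYC, each with 2 repeats. The fusion of SWC4 to 13 copies of the Myc tag was thus carried by the wild type as well as by the strains that lack Yaf9, Eaf1 or Swr1. A further wild-type strain with no tag, also in 2 repeats, was not analysed here, so signal of the antibody without its target was not examined.

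SWR1 is a chromatin remodeller that replaces histone H2A in nucleosomes by the variant H2A.Z, mostly in the nucleosomes beside promoters. Swr1 is its ATPase and scaffold, and several other subunits bind histones, free DNA or the nucleosome. Swc4 and Yaf9 belong also to NuA4, a histone acetyltransferase whose scaffold is Eaf1. The genes below are therefore those of the tagged protein, of its partners and of proteins missing in a strain.

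Each deposited list pools both repeats of a strain, which leaves no spread between repeats, and no strain was tested against another. The lists held 4590 peaks in yaf9d, 2937 in eaf1d, 1262 in swr1d and 625 in wild type. Fold is the authors' enrichment at the peak's summit over the local background, and −log10 q is the authors' significance, whose lowest value was 1.31 in each list. Both are the peak caller's own values. They rank peaks within 1 list, and values of different lists are given side by side without a test. The number of fragments over a summit was recovered from fold and p, and the 95% intervals of fold below come from it and cover counting error alone. Read totals and the genome build of the lists were not given in the sources used here; printed positions are those of the peaks.

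Swc4 peaks lay at 10 of the 10 subunit genes in yaf9d, at 9 in eaf1d, at 3 in swr1d and at 3 in wild type. Over all 6002 genes the share with a peak was 64.2% in yaf9d, 51.6% in eaf1d, 26.3% in swr1d and 16.6% in wild type. In swr1d the genes with a peak were SWC5, VPS71 and BDF1, and in wild type SWR1, VPS71 and BDF1. Without SWR1, which swr1d lacks, peaks lay at 3 of 9 genes in swr1d and at 2 of 9 in wild type. The only subunit gene without a peak in eaf1d was SWC5. The yaf9d and eaf1d lists were also the longest. When each list was kept to its 625 peaks of highest −log10 q, only 1 of the 10 genes had a peak in yaf9d, 3 in eaf1d, 2 in swr1d and 3 in wild type, against 13.9%, 14.0%, 14.2% and 16.6% of all genes.

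The most frequent pattern was a peak in yaf9d and eaf1d and in neither of the other lists. It was seen at SWC4, YAF9, VPS72, ARP6, SWC3 and SWC7, which is 6 of the 10 genes, and at 21.1% of all genes. With lists of equal length the only subunit gene with a yaf9d peak was VPS71, so none of the subunit genes kept this pattern. The share of all genes that kept it is not given here. VPS71 and BDF1 had a peak in all 4 lists, as 9.05% of all genes did. SWR1 had one in yaf9d, eaf1d and wild type (3.80% of all genes), and SWC5 in yaf9d and swr1d (1.3995%). The swr1d strain lacks SWR1, so a peak over the body of that gene could not occur there. None of the 10 genes lacked a peak in every list, against 31.7% of all genes. In all, 7 of the 10 genes had a peak in at least 1 mutant list and none in wild type, against 51.7% of all genes.

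**Figure D1:**
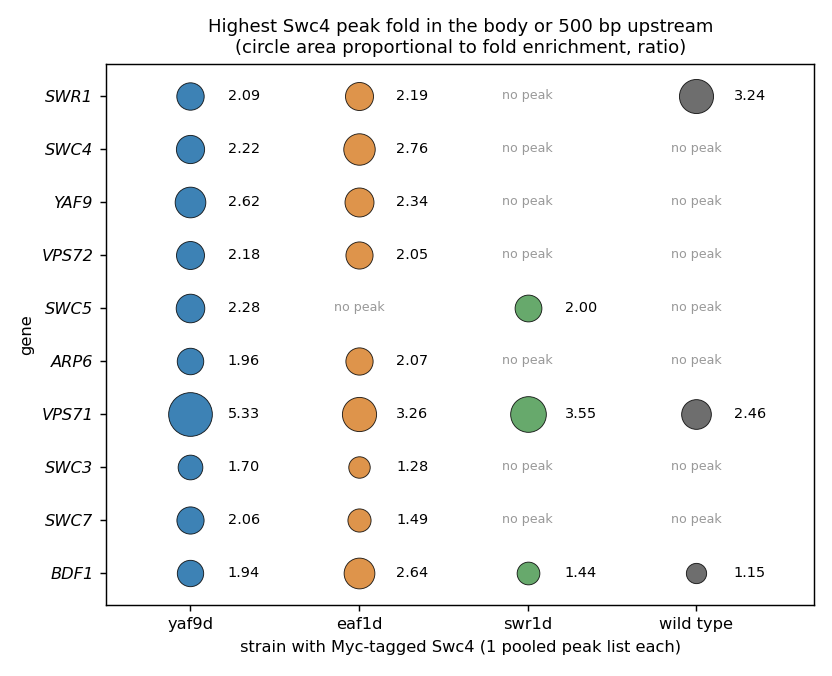
Highest fold of a Swc4 peak in the body or the 500 bp upstream of each subunit gene (rows), in the pooled list of each strain (columns). Circle area is proportional to fold, printed beside it. The yaf9d and eaf1d columns are filled at 10 and 9 genes, the swr1d and wild-type columns at 3 each, and the highest fold is 5.33 at VPS71 in yaf9d.

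SWR1 itself, which encodes the ATPase, carried the strongest wild-type peak among the 10 genes, and this peak lay at its start. In eaf1d the peak at this site (chromosome IV, 1135708–1136120) had a fold of 2.19 (interval 1.85–2.58), 142 fragments over the summit and rank 1317 of 2937 by −log10 q. In wild type the peak (1135665–1136338) had a fold of 3.24 (2.81–3.73), 195 fragments and rank 125 of 625. The summits lay 52 bp upstream of the start in eaf1d and 30 bp upstream in wild type, in the space between SWR1 and its divergent neighbour RQC1. The yaf9d list had no peak at that site. Its peaks at SWR1 lay inside the body (1137284–1137504, fold 1.62) and across the end of the gene (1140143–1140793, fold 2.09, summit 216 bp past the end). By fold within the list, the peaks at the start stood at percentile 76.0 in eaf1d and 90.2 in wild type.

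In swr1d, the strain without the gene, no peak overlapped SWR1 or the 500 bp upstream of it. The nearest one began at the first base after the annotated end of the gene (1140477–1140809) and had a fold of 2.02, with its summit 194 bp past the end. Peaks of yaf9d and eaf1d had summits 216 and 223 bp past the end, so these 3 lists shared a site between SWR1 and MSN5, the next gene. The yaf9d peak there reached 334 bp into SWR1, the eaf1d peak (1140603–1140866, fold 1.86) began 127 bp past the end, and the swr1d peak had its edge at the boundary of the gene. Wild type had no peak at this site.

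YAF9 encodes a YEATS-domain protein that binds acetylated histone H3. No list had a peak over its body, so loss of the gene's own sequence could not be seen there in yaf9d. Upstream, the peak in yaf9d (chromosome XIV, 419589–419905) had a fold of 2.62 (interval 2.23–3.06) and stood at percentile 90.1 of fold in its list. In eaf1d the peak (419593–419861) had a fold of 2.34 (2.004–2.73) and stood at percentile 83.9. The summits lay 378 and 369 bp upstream of the start, within the body of the neighbouring gene YNL108C. Neither swr1d nor wild type had a peak within 3000 bp of YAF9.

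A further yaf9d peak lay beyond the end of YAF9 and had the highest fold of any peak within 3000 bp of a gene deleted in one of the strains. It covered 420779–421684, beginning at the first base after the annotated end, and had a fold of 3.58, −log10 q of 52.7 and rank 377 of 4590. Its summit was 20 bp past the end. The eaf1d peak on that side (421113–421700) had a fold of 1.59, and its summit was 689 bp past the end of YAF9. Both peaks extend into INP52, the next gene. Over all protein-coding genes, a peak that began at the first base after a gene or ended at the last base before one occurred once in yaf9d, at YAF9, once in swr1d, at SWR1, once in wild type, at RPL26A, and 0 times in eaf1d. The yaf9d and swr1d cases were thus each at the gene that the strain lacks.

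EAF1, the NuA4 scaffold gene, is no subunit of SWR1 and was looked at because eaf1d lacks it. The eaf1d list had no peak within 3000 bp of it on either side. In yaf9d a peak lay over its start (chromosome IV, 1194762–1195383, fold 1.96) and another in its body (1192013–1192646, fold 1.504). In swr1d a peak lay upstream (1194958–1195374, fold 1.38). The summits upstream were 97 bp from the start in yaf9d and 109 bp in swr1d. Wild type had no peak over the EAF1 body or upstream of it, and its nearest peak (1190103–1190593, fold 1.61) lay past the end, so a missing eaf1d peak cannot be told apart from a site that is not bound.

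**Figure D2:**
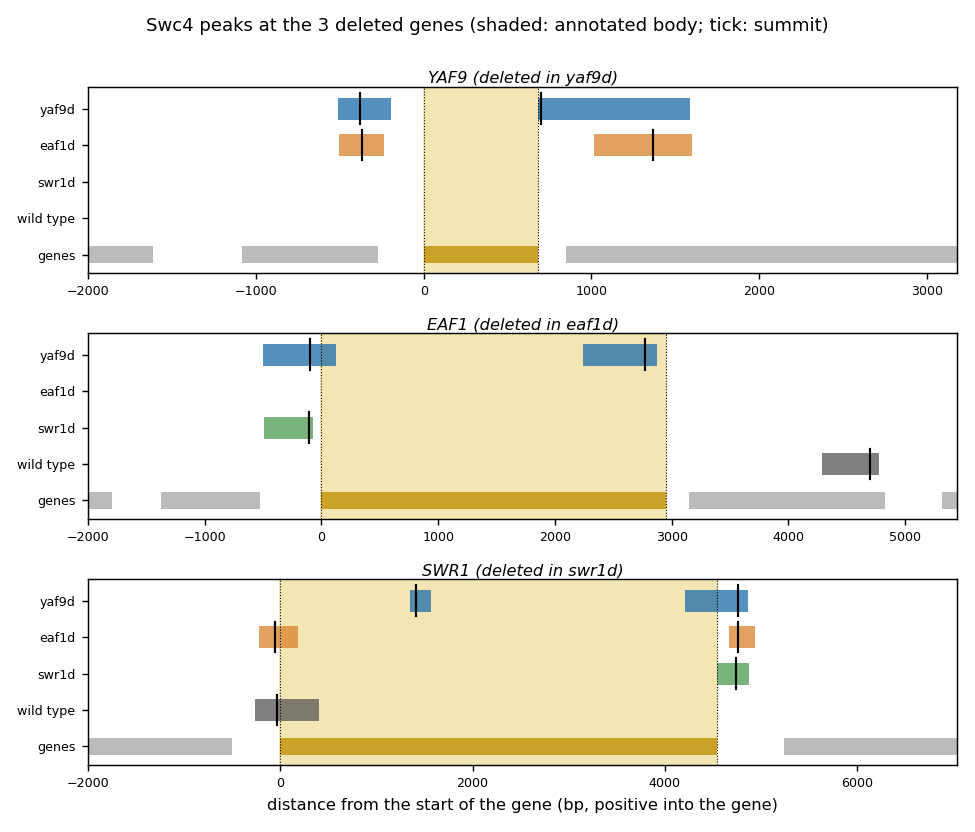
Peaks of the 4 lists around YAF9, EAF1 and SWR1, drawn against the distance from the start of each gene in bp. Bars are peaks, black ticks their summits, the shaded area is the annotated body and the bottom track shows annotated genes (the named gene in gold, others in grey). The yaf9d peak right of YAF9 and the swr1d peak right of SWR1 begin at the first base after the gene, and no eaf1d peak is near EAF1.

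SWC4, the gene of the tagged protein, had peaks in yaf9d and eaf1d at the beginning of its body. In yaf9d the peak (chromosome VII, 499663–499906) had a fold of 2.22 (interval 1.88–2.60), with 147 fragments over the summit. In eaf1d the peak (499654–499967) had a fold of 2.76 (2.42–3.13), with 243 fragments, and stood at percentile 93.6 of fold and rank 284 of 2937. The summits lay 100 and 107 bp past the start, 7 bp apart. A weaker yaf9d peak lay further into the body (498653–499048, fold 1.44, rank 4489 of 4590).

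Neither swr1d nor wild type had a peak at SWC4. The nearest peak was 2389 bp from the window in swr1d and 5661 bp in wild type. No list had a peak across the end of the SWC4 body. The nearest peak to that end was 177 bp away in yaf9d, 568 bp in eaf1d, 2389 bp in swr1d and 7591 bp in wild type.

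VPS72 (also called Swc2) encodes the subunit that binds H2A.Z and free DNA, and SWC5 encodes a histone-binding subunit that the exchange needs. At VPS72 the peak in yaf9d (chromosome IV, 1427444–1427760) had a fold of 2.18 (interval 1.87–2.54). The eaf1d peak (1427423–1427705) had a fold of 2.05 (1.78–2.35). Both summits were at the same base, 395 bp upstream of the start and within the body of VPS60, the gene upstream.

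SWC5 had its peaks at the other end of the gene. In yaf9d the peak (chromosome II, 682010–682537) had a fold of 2.28 (interval 2.004–2.58). In swr1d the peak (682010–682447) had a fold of 2.003 (1.77–2.26). The peaks shared an edge at the same base, and their summits lay 20 bp past the end of SWC5 in yaf9d and 55 bp past it in swr1d. No peak overlapped the 500 bp upstream of SWC5 in any list.

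ARP6 and VPS71 (also called Swc6) encode a pair of subunits that contact the nucleosome together. ARP6, an actin-related protein gene, had peaks in yaf9d and eaf1d towards the end of its body. The yaf9d peak (chromosome XII, 300676–301046) had a fold of 1.96 (interval 1.70–2.24) and the eaf1d peak (300653–301031) a fold of 2.07 (1.83–2.33). Their summits were 1 bp apart. Peaks on the upstream side had lower folds, 1.44 in yaf9d and 1.73 in eaf1d, and summits within the body of SMC4, a condensin gene that diverges from ARP6.

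VPS71 had the highest fold among the 10 genes in each of yaf9d, eaf1d and swr1d, and the second highest in wild type. The fold was 5.33 in yaf9d (chromosome XIII, 195933–196325, interval 4.76–5.94), 3.26 in eaf1d (195948–196290, 2.87–3.68), 3.55 in swr1d (195975–196284, 3.15–3.99) and 2.46 in wild type (195963–196340, 2.15–2.81). By −log10 q these peaks ranked 151 of 4590 in yaf9d, 171 of 2937 in eaf1d, 250 of 1262 in swr1d and 171 of 625 in wild type. All 4 peaks covered SUF7, a tRNA gene transcribed by RNA polymerase III, which lies 312 bp upstream of VPS71. The summits were inside SUF7, 13 bp from its middle in yaf9d, 19 bp in eaf1d, 6 bp in swr1d and 17 bp in wild type. Several yeast tRNA genes are near-identical, and reads from such a gene may be placed at another of them. No list had a peak that overlapped the VPS71 body, and no peak had its summit between SUF7 and VPS71.

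The 3 genes whose percentiles of fold over the 4 lists were nearest to those of VPS71 were YML039W and YML040W, retrotransposon genes on the other side of SUF7 that share these same peaks, and TIM9. TIM9 had folds of 4.22 in yaf9d, 3.26 in eaf1d, 3.48 in swr1d and 2.42 in wild type. Its peak in wild type (chromosome V, 117321–118193) had its summit in RPR1, the gene of the RNA of RNase P and also a gene of RNA polymerase III. In the other lists the summit lay in no annotated gene, 19 bp from RPR1 in yaf9d, 26 bp in eaf1d and 30 bp in swr1d. Likeness was measured as Euclidean distance over 4 values only.

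SWC3 and SWC7 encode further subunits. At SWC3 a wide yaf9d peak (chromosome I, 130839–132624, fold 1.70, interval 1.54–1.88) had its summit 1128 bp upstream of the start. The eaf1d peak (131862–132570) had a fold of 1.28 (1.15–1.43), at percentile 3.10 of its list, and its summit was 315 bp upstream. Both summits lay within CYS3, the gene upstream, which makes an enzyme of cysteine synthesis. At SWC7 the peak in yaf9d (chromosome XII, 893109–893845) had a fold of 2.06 (1.72–2.46) and its summit 183 bp into the body. In eaf1d the peak (893146–893882) had a fold of 1.49 (1.26–1.76) and its summit 232 bp upstream, between SWC7 and the divergent gene VAC14.

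BDF1, which encodes a bromodomain protein that binds acetylated histone H4 and also works with the general transcription factor TFIID, had 3 peaks in yaf9d, 2 in eaf1d, 2 in swr1d and 1 in wild type. The peak near its end had a fold of 1.67 in yaf9d (chromosome XII, 919473–919863, interval 1.51–1.85), 2.64 in eaf1d (919419–919920, 2.45–2.84) and 1.44 in swr1d (919507–919811, 1.297–1.60), and wild type had none there. A yaf9d peak in the middle of the body (920250–920878) had a fold of 1.94. In eaf1d the peak near the end was the most significant peak of the 10 genes in that list, with −log10 q of 106, rank 58 of 2937 and 704 fragments over the summit. By fold it ranked 242. The local background at its summit was 266 fragments, while the lowest in that list was 64.3.

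Near the start of BDF1 all 4 lists had a peak. The fold was 1.59 in yaf9d (921147–922245), 1.89 in eaf1d (920208–921563), 1.27 in swr1d (921352–922208) and 1.15 in wild type (921431–922252). The summits lay 219 bp into the body in yaf9d, 222 bp in eaf1d, 204 bp in swr1d and 165 bp in wild type. The wild-type peak ranked 623 of 625, with −log10 q of 1.33, and its summit was at the edge of the peak. Its interval of fold was 1.04–1.26. The local background at the summit was 385 fragments in wild type, while the lowest in that list was 59.4.

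**Figure D3:**
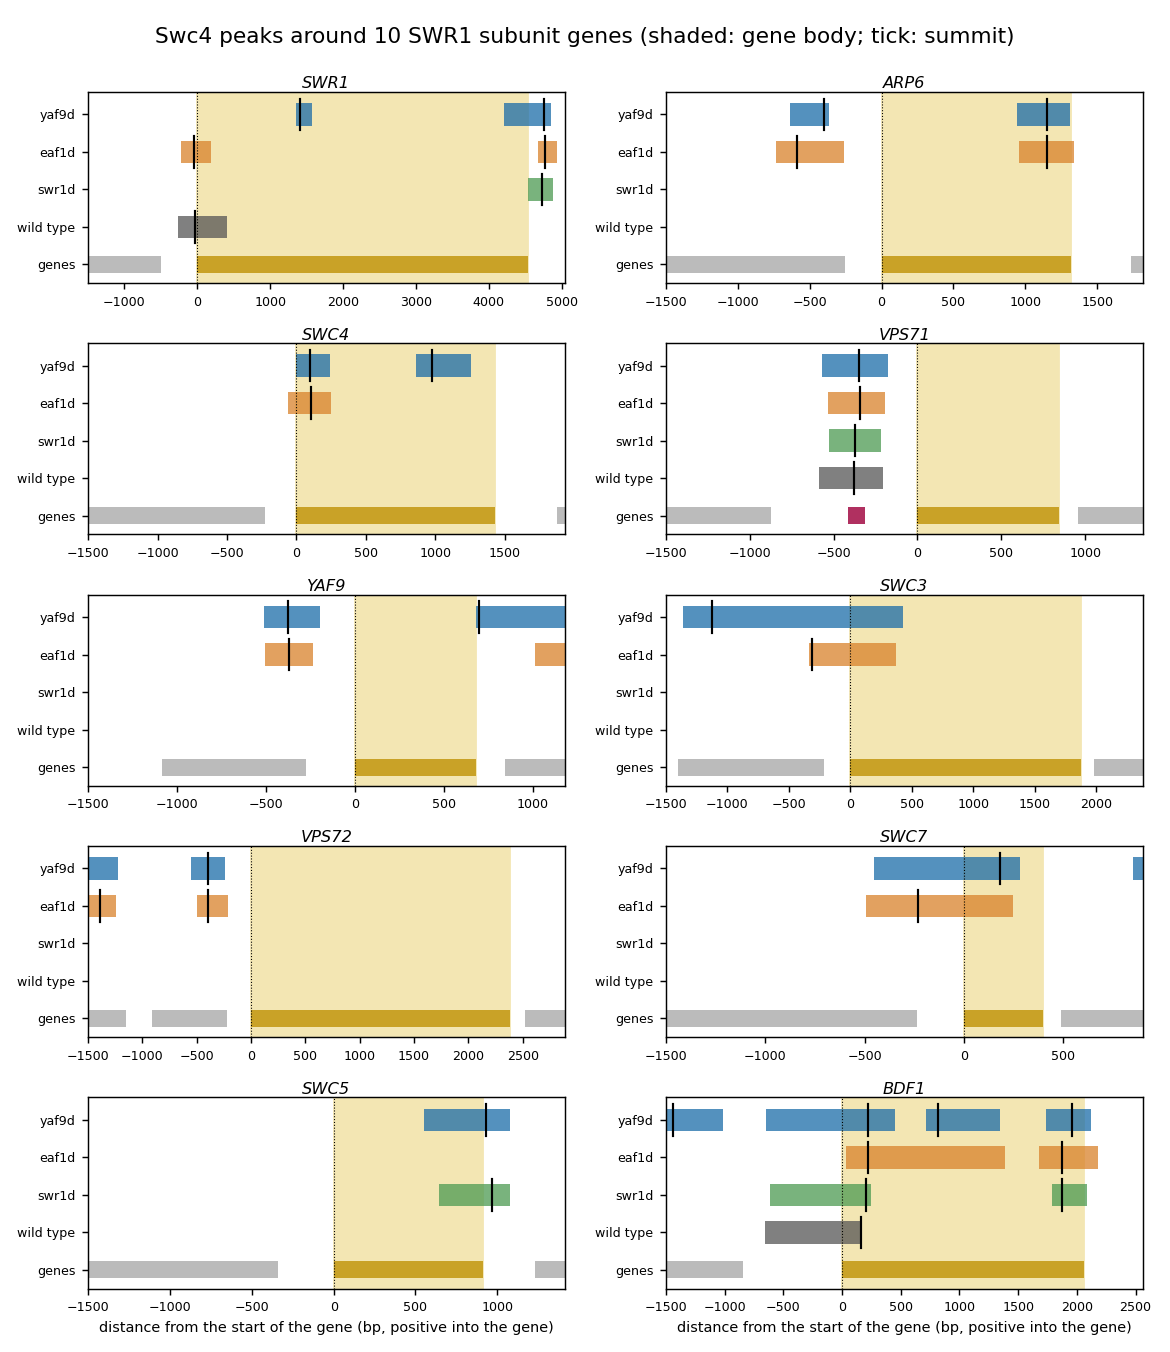
Peaks of the 4 lists at the 10 subunit genes, drawn against the distance from the start of each gene in bp. Bars are peaks, black ticks their summits, the shaded area is the annotated body, and the bottom track shows annotated genes (the named gene in gold, a tRNA gene in red, others in grey). At VPS71 all 4 bars sit over the tRNA gene, and at SWR1 the eaf1d and wild-type bars sit at the start.

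The 10 genes had 33 peaks in all, 15 in yaf9d, 11 in eaf1d, 4 in swr1d and 3 in wild type. Of these, 15 had the summit in the body of the subunit gene, 13 in the 500 bp upstream and 5 beyond the window. Among the 13 upstream summits 10 lay within another annotated gene, and the 3 that lay in none were those at SWR1 in eaf1d and wild type and at SWC7 in eaf1d. Peaks of different lists at the same site are counted each, as the 4 at VPS71 are. The same split over the peaks of all genes is not given here. A count of summits in the gene's own body, or upstream of it and outside every other annotated gene, was chosen after seeing the data. It gave 5 of the 10 genes in yaf9d, 5 in eaf1d, 1 in swr1d and 2 in wild type, against 52.2%, 38.4%, 16.5% and 9.21% of all genes. YAF9, VPS72, VPS71, SWC3 and SWC5 were without such a summit in every list.

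Where peaks of different lists overlapped at a subunit gene, their summits often lay close together. The 33 peaks formed 15 sites, of which 12 were seen in more than 1 list, and in 7 of these 12 all summits lay within 50 bp of each other. Among all 2768 yaf9d peaks that overlapped an eaf1d peak, the median distance between summits was 20 bp and 67.7% were within 50 bp. That distance is to the nearest eaf1d summit, while the spread of a site covers all its peaks, so the measures differ. Whether one control served several lists was not given in the sources used here.

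In the upstream window alone, a peak lay at 7 of the 10 genes in yaf9d, 8 in eaf1d, 2 in swr1d and 3 in wild type, against 40.5%, 35.2%, 17.7% and 13.0% of all genes. In the body alone it was 7 in yaf9d, 6 in eaf1d, 2 in swr1d and 2 in wild type, against 54.1%, 40.2%, 15.4% and 10.5%. Peaks covered 30.4% of the windows of the 10 genes in yaf9d, 25.0% in eaf1d, 7.32% in swr1d and 7.61% in wild type. For all genes they covered 19.6%, 15.04%, 5.10% and 3.66% in the same order. Without SWR1, which swr1d lacks, the subunit genes had 36.4%, 30.2%, 9.57% and 5.84%. The median window was 1874 bp for the 10 genes and 1700 bp for all genes.

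**Figure D4:**
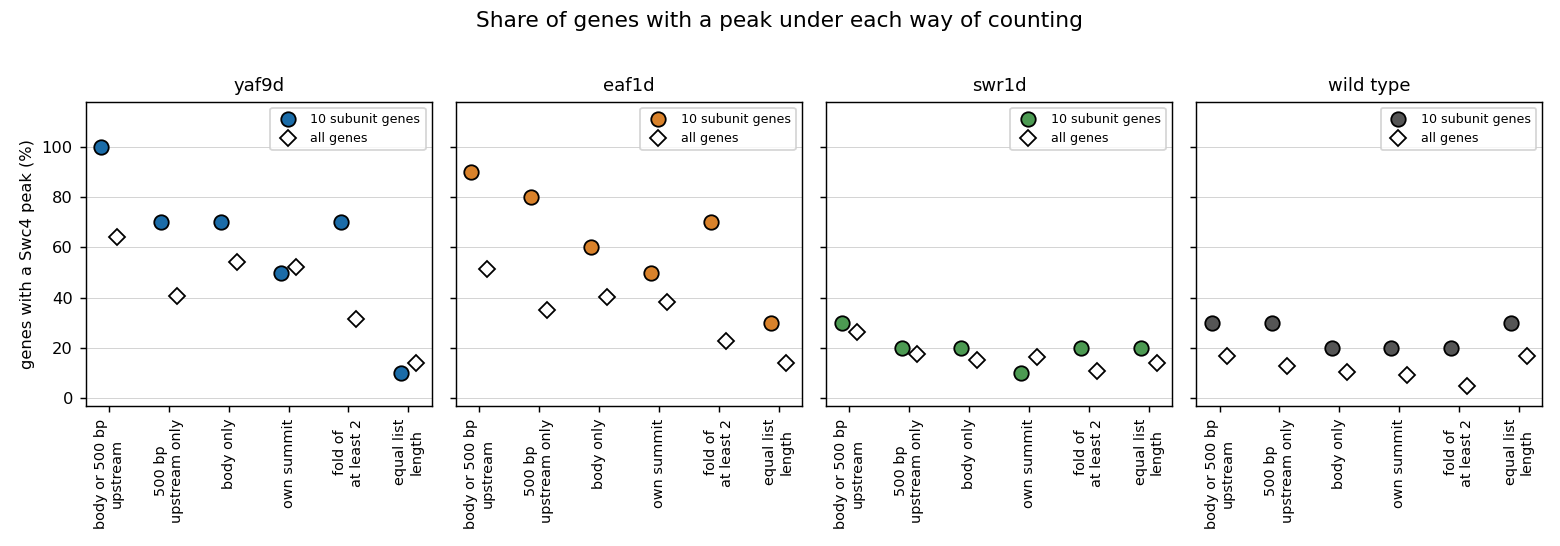
Share of the 10 subunit genes (filled circles) and of all 6002 genes (open diamonds) with a Swc4 peak, in percent, for each strain and 6 ways of counting. The circles of yaf9d run from 100% in the full window to 10% with lists of equal length, and those of wild type stay between 20% and 30%.

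Among genes with a peak, the median of the highest fold was 2.14 for the subunit genes and 1.99 for all genes in yaf9d. It was 2.19 and 1.94 in eaf1d, 2.003 and 1.74 in swr1d, and 2.46 and 1.68 in wild type. For the subunit genes, the swr1d and wild-type medians rest on 3 genes each. They are the fold of SWC5 in swr1d and that of VPS71, with its summit in SUF7, in wild type. Without SWR1 the subunit medians were 2.18 in yaf9d, 2.21 in eaf1d, 2.003 in swr1d and 1.80 in wild type. With peaks of fold at least 2, a peak lay at 7 of the 10 genes in yaf9d, 7 in eaf1d, 2 in swr1d and 2 in wild type, against 31.4%, 22.7%, 11.0% and 4.93% of all genes. The swr1d genes were then SWC5 and VPS71, and the wild-type genes SWR1 and VPS71. Some of these peaks had their summits elsewhere, within a neighbouring gene at YAF9, VPS72 and VPS71. In yaf9d the SWR1 and SWC5 summits, and in swr1d the SWC5 summit, lay past the end of the gene. Such peaks count in the shares of all genes as well.

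**Figure D5:**
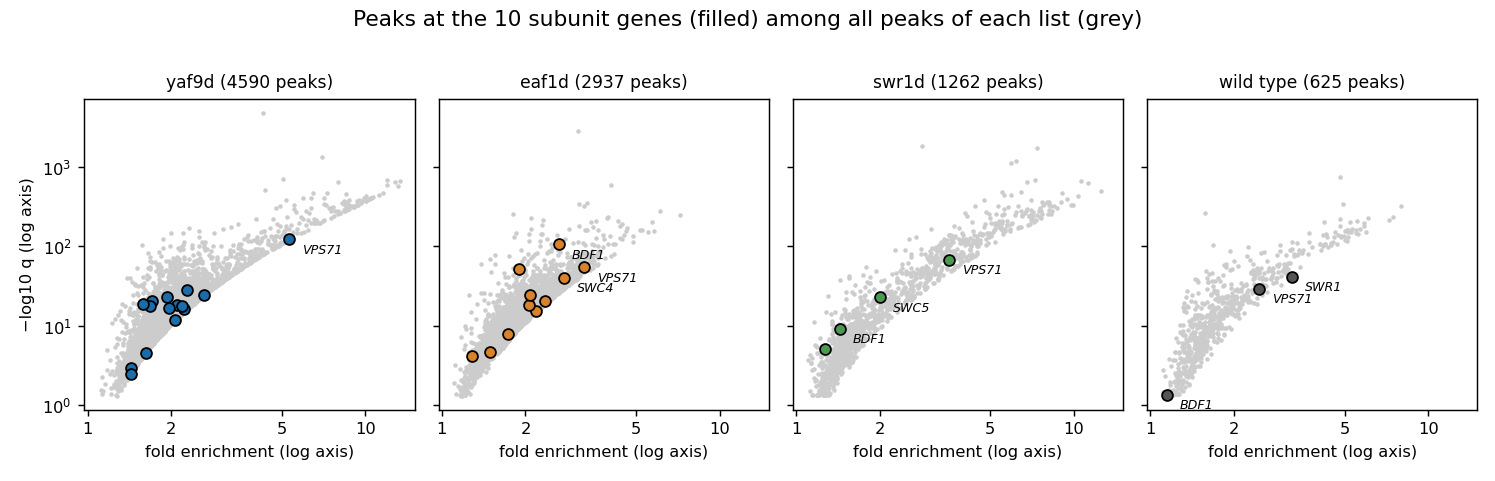
Fold enrichment (horizontal, log axis) and −log10 q (vertical, log axis) of every peak of each list (grey) with the peaks at the 10 subunit genes filled. Names are given for subunit genes with a peak in the upper 10% of a list by −log10 q, and for all in swr1d and wild type. VPS71 in yaf9d stands apart from the other subunit genes at a fold of 5.33, and BDF1 in wild type is at the bottom left at 1.15.

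RVB1, RVB2, ARP4 and ACT1, subunit genes of SWR1 that other complexes share, had a peak at 4 of 4 genes in yaf9d, 3 in eaf1d, 1 in swr1d and 1 in wild type. RVB1, a AAA+ ATPase gene, had the wild-type peak, near its start (chromosome IV, 841677–842035, fold 1.87, interval 1.63–2.15). The only eaf1d peak at RVB1 had its summit 575 bp upstream, within HST4 and outside the window, and 30.5% of that peak lay in the window. ARP4 had the swr1d peak (fold 1.403) and no eaf1d peak, and its yaf9d peak had its summit within SCP160. ACT1, the actin gene, had folds of 2.69 in yaf9d and 2.14 in eaf1d over its body, with summits 408 and 411 bp from its start. Over all 14 SWR1 subunit genes a peak thus lay at 14 in yaf9d, 12 in eaf1d, 4 in swr1d and 4 in wild type, against 64.2%, 51.6%, 26.3% and 16.6% of all genes in the same order of lists. The 4 of 14 in swr1d (28.6%) was near the share of all genes.

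HTZ1, the gene of H2A.Z itself, had a peak in all 4 lists, with folds of 1.81 in yaf9d, 1.79 in eaf1d, 1.89 in swr1d and 1.55 in wild type. The summit was in the body in yaf9d and eaf1d, 150 and 138 bp from the start. It lay 711 bp upstream in swr1d and 679 bp upstream in wild type, outside the window. The yaf9d and eaf1d peaks reached 1025 and 903 bp upstream, so both also covered the places of the swr1d and wild-type summits. Of the HTZ1 peak, 35.8% lay in the window in swr1d and 12.1% in wild type. NAP1, a histone chaperone gene, had peaks in yaf9d, eaf1d and wild type (highest folds 1.83, 1.82 and 1.26). The yaf9d peak of that fold had its summit 860 bp upstream, outside the window, and the one over the body had a fold of 1.57. In wild type the peak stood at percentile 5.44 of fold. CHZ1, the gene of a chaperone of H2A.Z, had none in any list.

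Of 9 NuA4 genes outside SWR1, 6 had a peak in yaf9d, 3 in eaf1d, 3 in swr1d and 3 in wild type. Over all genes the shares were 64.2%, 51.6%, 26.3% and 16.6% in the same order of lists. The 6 of 9 in yaf9d (66.7%) was near the share of all genes. EAF1 is among these 9 and is missing in eaf1d. EPL1 led the NuA4 genes in yaf9d, eaf1d and swr1d with folds of 2.84, 2.74 and 1.61, and EAF5 led in wild type with 1.60. Of 11 INO80 genes, which encode another nucleosome remodeller, 9 had a peak in yaf9d, 8 in eaf1d, 2 in swr1d and 0 in wild type. The shares of all genes to set beside these counts are those just given. IES5 led in yaf9d with a fold of 2.94, ARP5 in eaf1d with 2.38 and IES6 in swr1d with 4.14. No difference between these sets and the 10 subunit genes was tested.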

How the data were processed

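ChIP-seq with the c-Myc antibody covered 10 samples, 5 groups of 2 repeats. Swc4 carried the Myc tag in 4 of these groups, and the remaining group was wild type with no tag. The 4 deposited lists each pool both repeats of 1 tagged strain, per the labels. Per the submitters' processing notes, fastp 0.21.0, BWA 0.7.15-r1140, SAMtools 1.4 and MACS2 were used; build, control and settings were not given in the sources used here. Deposited are the authors' fold (a ratio over the local background), −log10 p and −log10 q at each summit, plus a score that went unused.

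Peaks were set against the R64 gene table (Python 3.11.15, pandas 2.3.3, SciPy 1.17.1), with strand taken from the locus tag. As a check of the build, a summit lay within 60 bp of the middle of 114 of 275 tRNA genes in yaf9d, 76 in eaf1d, 112 in swr1d and 34 in wild type, against 2 to 4 when summits were shifted by 500 bp. Fragments over a summit (pileup) and local background were solved from fold and −log10 p by the Poisson formula. Summits with −log10 p above 250 were not solved (78 in yaf9d, 8 in eaf1d, 60 in swr1d and 4 in wild type, none at the 10 genes). The pileup came out whole within 0.05 at 97.9% to 99.8% of the solved summits by list. Intervals are exact Poisson 95% intervals of the pileup with the background held fixed; reads from PCR are not independent, so they cover counting error only. The overlap and the solution were tested on simulated data.

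The members, lists and rule for named genes were chosen with earlier results of these data known. Named were the 10 members, EAF1, the listed genes of the pathway, NuA4 and INO80, neighbours that share a peak, and the 3 genes nearest to VPS71 by percentile of fold. Promoter motifs and sequences were not analysed here.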

Additional observations from a re-analysis of the deposited data

How the results depend on the processing

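Of 66 recounts under 11 alternatives, 53 stayed within 1.5 times the count given. The number of genes with a peak in all 4 lists, 2 as given, was 1 with −log10 q of at least 5, with fold of at least 2, with lists of equal length, in the upstream window alone, in the body alone and with own summits (6.18%, 2.43%, 3.25%, 6.21%, 3.75% and 3.42% of all genes). With lists of equal length the count was 1 in yaf9d and 3 in eaf1d, and 2 genes had a peak in a mutant and none in wild type, against 7 as given (13.3% of all genes, against 51.7% as given). With own summits, an alternative chosen after seeing the data, it was 5 in yaf9d, 5 in eaf1d, 1 in swr1d and 3 for a peak in a mutant and none in wild type (48.3% of all genes for that last count). Upstream windows of 250 and 1000 bp, summits in the window, a share of at least 0.5 of the peak in the window and merging of peaks under 200 bp apart left every count within 1.5 times. The 25 highest folds could be recomputed 221 times, of which 6 moved, and in 54 cases no peak was left (lists of equal length kept 9 of the 25). A peak that passes a filter keeps its fold, so the other 215 values being equal is no sign of stability. No paired analysis was possible because each list pools both repeats, and for the same reason no repeat could be left out. The depth is known only as fragments over summits, so a gene without a peak was not shown to be unbound.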

Other observations

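Some windows without a peak had one just outside. At ACT1 the nearest peak was 63 bp from the window in swr1d (chromosome VI, 55259–55845, fold 1.52) and 130 bp in wild type (55326–55956, fold 1.28). At CHZ1 it was 120 bp in yaf9d (chromosome V, 212528–212817, fold 2.92), 115 bp in eaf1d (212571–212822, fold 2.26) and 169 bp in swr1d (214067–215183, fold 1.59). At ARP6 the nearest peak was 18075 bp away in swr1d and 18311 bp in wild type, the farthest among the 10 subunit genes.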
